A study of Mus musculus with 28 samples.

Results

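Kidneys of water-gavaged mice were compared between animals gavaged 2 times a day and animals gavaged once a day. The members were chosen by label: the 4 kidney libraries of water control mice of the 1340 mg/kg/d schedule (1 gavage per day) and the 3 of the 2680 mg/kg/d schedule (2 gavages per day), which made 7 of the 28 libraries of the series. All 7 came from male C57BL/6 mice (C57BL6J in the study's methods) aged 8 weeks that were gavaged with sterile water for 7 days, and the schedules are named by the NMN (nicotinamide mononucleotide) dose that the matching treated mice received. Mice were allotted at random to the gavage groups, per the study's methods, and no mouse in either of these 2 groups received NMN, so the question was how far kidney expression in control mice differed between the schedules. PolyA-selected RNA was sequenced, and between 15354300 and 15696400 reads per library were counted on genes in the once-daily group and between 16358900 and 18983700 in the twice-daily group. The study's methods name a pair of sequencers without saying which of them read which library, and several measures of the libraries themselves split the same way as the groups. Gavage frequency therefore cannot be told apart from a cohort of mice, library preparation or sequencing that followed it. In bulk tissue, fewer cells of a type and less RNA per cell also cannot be told apart.

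The kidney filters blood in the glomerulus and reclaims salt, water, glucose and phosphate along the tubule, work that is paid for by mitochondrial respiration in the proximal tubule and the thick ascending limb. Its transporters follow a daily rhythm set by the circadian clock, in which ARNTL and CLOCK drive the Per and Cry genes through E-box sequences while the PER and CRY proteins repress this drive and NR1D1 represses Arntl. Glucocorticoids, released with the daily rhythm and in response to handling or other stress, act on many of the same genes, including Per1, Tsc22d3 and Sgk1.

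Of 15267 genes tested, 2787 (18.3%) were called, meaning that the Benjamini-Hochberg adjusted p from the quasi-likelihood test of edgeR was below 0.05, and up-regulated and down-regulated are used here of called genes only. Single omissions gave 1632 to 2880 called genes, the lowest counts being 1742 without twice-daily replicate 2 and 1632 without twice-daily replicate 3. Of the called genes, 1153 (7.55% of the genes tested) were up-regulated in twice-daily mice and 1634 (10.7%) were down-regulated. An unadjusted p below 0.05 was found for 4859 genes (31.8%), and the values of the 2 groups did not overlap for 4521 genes (29.6%). A stricter rule (adjusted p below 0.01 and at least 2 times higher or lower) kept 350 genes (2.29%), with 96 higher (0.629%) and 254 lower (1.66%) in the twice-daily mice. The median log2 fold change over all tested genes was -0.01, with CPM (counts scaled to a common library size with TMM factors, per 1e6 reads) as the unit of expression throughout. Scaling by library size alone moved the median of all genes by -0.17 on the log2 scale and changed the split to 502 up-regulated and 3447 down-regulated genes. The list medians and counts are described relative to the TMM scaling. Every list count is to be read beside the 18.3% called over all genes, 7.55% upward and 10.7% downward. Counts under library size alone are given beside some of the lists only, so a list without them is not shown to be stable under that scaling.

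**Figure D1:**
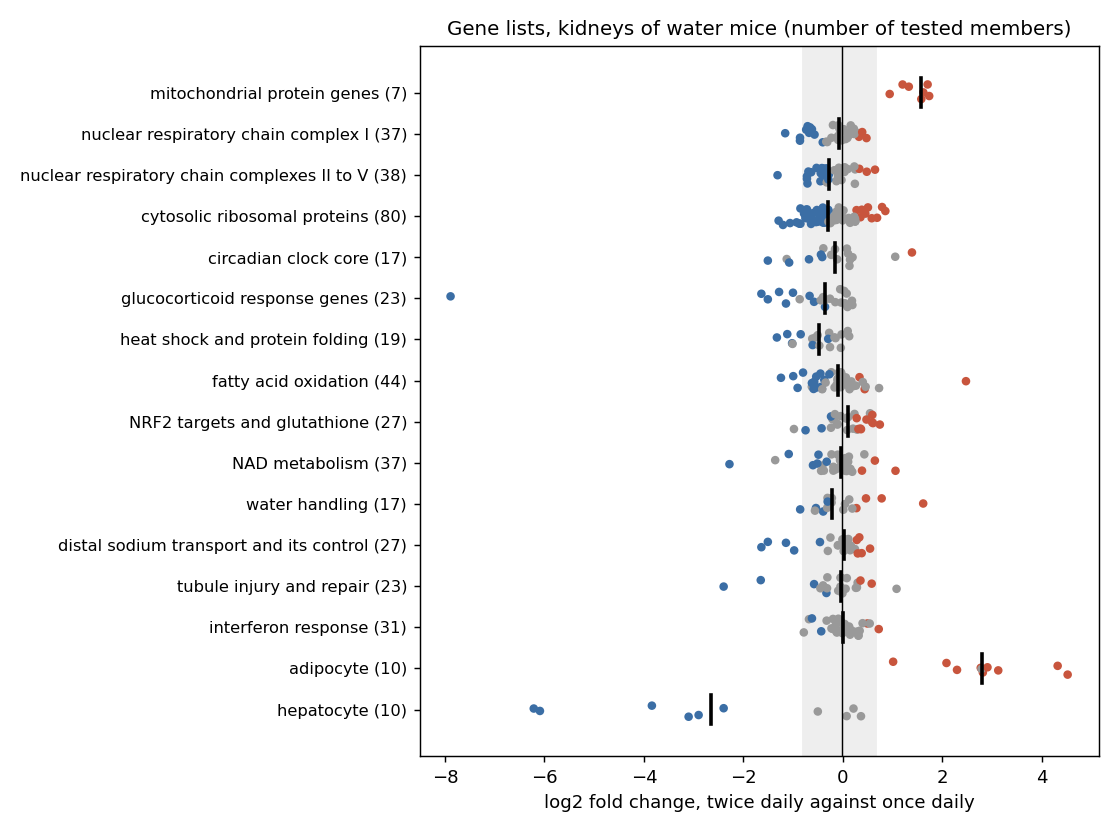
Log2 fold changes (twice-daily against once-daily, horizontal axis) of the tested members of 16 lists, with the number of tested members in parentheses. Red points were up-regulated, blue points down-regulated and grey points not called, black bars are list medians, and the grey band holds the 5th to the 95th percentile of all tested genes (-0.80 to 0.66). The mitochondrial protein genes and the adipocyte markers lay to the right of most of the band, 6 hepatocyte markers lay far to the left, and most other lists were centred near 0.

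The mitochondrial genome encodes 13 subunits of the respiratory chain and its own ribosomal RNAs. Of the 13 protein genes, 7 had enough counts to be tested and all 7 were up-regulated in twice-daily mice, with a median log2 fold change of 1.58. mt-Nd2, a complex I subunit, was at 9061, 7799, 8990 and 8936 CPM in the once-daily libraries and 28356, 25963 and 30832 CPM in the twice-daily libraries, a log2 difference of 1.71 ± 0.10 (SE, adjusted p = 1.81e-08, edgeR). The groups were far apart for this gene, with no overlap. mt-Nd6 differed by 1.74, mt-Nd1 by 1.62, mt-Nd4 by 1.58, mt-Nd5 by 1.20, the cytochrome b gene mt-Cytb by 1.33 and the complex IV gene mt-Co1 by 0.94. mt-Nd6 lies on the strand opposite the other protein genes and the counting ignored strand, so its reads cannot be told apart from those of the opposite strand. The other 6 protein genes, mt-Co2, mt-Co3, mt-Atp6, mt-Atp8, mt-Nd3 and mt-Nd4l, held between 0 and 14 counts in any of the 7 libraries and were not tested. For mt-Nd4 and mt-Co1, 62.2% and 51.1% of the 50-base stretches also occur at another locus, so their values are uncertain, while the share was 0% to 8.19% for the other 5.

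The mitochondrial ribosomal RNAs moved the other way. mt-Rnr2, the large ribosomal RNA, was at 5039, 3230, 3626 and 4444 CPM in the once-daily libraries and 1754, 1201 and 1345 CPM in the twice-daily libraries, a log2 difference of -1.51 (adjusted p = 2.24e-04, edgeR). The groups did not overlap. The small ribosomal RNA mt-Rnr1 differed by -1.0 (adjusted p = 9.95e-04, edgeR). The gene with the smallest p in the comparison was the nuclear gene Lars2 (ENSMUSG00000035202.8), which encodes the mitochondrial leucyl-tRNA synthetase. Lars2 was at 772, 561, 562 and 649.9 CPM in the once-daily libraries and 76.0, 68.7 and 67.1 CPM in the twice-daily libraries, a log2 difference of -3.17 ± 0.12 (SE, adjusted p = 3.66e-10, edgeR).

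Measures of the whole library also differed between the groups, and the mitochondrial shares among them sum the reads of the genes just described. Mitochondrial genes took 9.10%, 9.24%, 10.6% and 9.89% of the counted reads in the once-daily libraries and 20.4%, 19.8% and 21.6% in the twice-daily libraries, a ratio of means of 2.12. Mitochondrial ribosomal RNA took 0.653% ± 0.104 (SD, n = 4) against 0.235% ± 0.0465 (SD, n = 3). Reads aligned to several places made up 11.1% ± 0.490 (SD, n = 4) of the once-daily files and 19.6% ± 0.359 (SD, n = 3) of the twice-daily files. Reads assigned to no gene, which under the strict exon counting of the authors include intronic reads and reads only partly on an exon, made up 10.96% ± 1.35 (SD, n = 4) against 7.08% ± 0.261 (SD, n = 3), and the 10 highest genes took 15% ± 0.712 (SD, n = 4) against 26.3% ± 0.993 (SD, n = 3). The number of reads counted on genes was also higher in every twice-daily library, with means of 15553300 and 17479000. Of 12 such measures, 11 separated the groups completely, but the measures are not independent, since the mitochondrial shares count the same reads. For each of the 11 the exact two-sided permutation test gave p = 0.0571, the smallest value that 3 against 4 libraries allow (0.0623 after Benjamini-Hochberg adjustment over the 12). The design could therefore not reach 0.05 for a single measure. The number of genes with a read overlapped, with means of 20758 and 20768 (exact permutation p = 0.914). The part of these library differences in the gene results was not tested, and counts with the mitochondrial genes removed before scaling gave 1194 up-regulated and 1532 down-regulated genes.

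**Figure D2:**
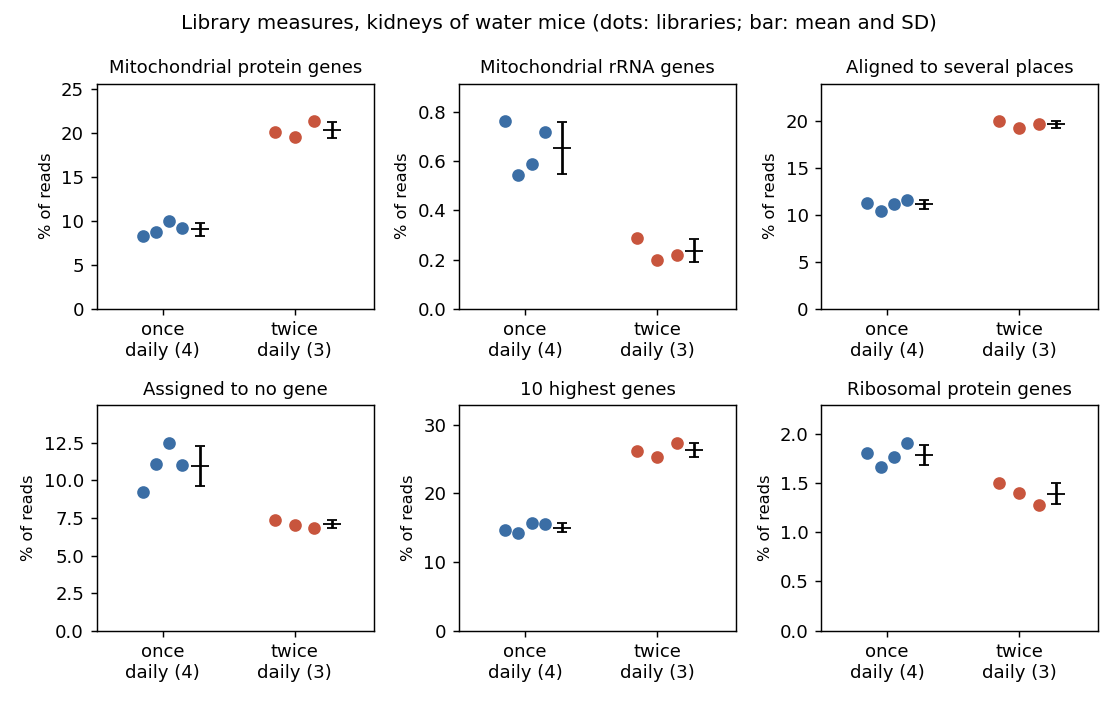
Share of reads (vertical axes, %) taken by 6 kinds of read in each kidney library of water mice, once-daily in blue (4 libraries) and twice-daily in red (3 libraries), with the mean and SD beside the points. Shares of genes are of the reads counted on genes, and the reads aligned to several places or assigned to no gene are shares of all reads in the file; the groups did not overlap in any of the 6 panels.

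Nuclear genes of the respiratory chain did not follow the mitochondrial protein genes. Of 37 nuclear complex I genes, 3 were up-regulated and 10 down-regulated (median -0.07), and of 38 genes of complexes II to V, 3 were up-regulated and 19 down-regulated (median -0.29). Ndufs5 and Ndufb2, accessory subunits of complex I, differed by -1.16 and -0.86, and the catalytic-core subunit gene Ndufv1 differed by -0.66. Atp5e, the epsilon subunit of the ATP synthase, was at 249.7, 173, 185 and 242 CPM in the once-daily libraries and 97.2, 85.1 and 74.3 CPM in the twice-daily libraries (log2 difference -1.31, adjusted p = 6.57e-05, edgeR), with no overlap. The Rieske protein gene Uqcrfs1 differed by -0.69 and the c-ring gene Atp5g3 by -0.71, while the complex III gene Uqcrb differed by 0.65. Atpif1, which encodes the inhibitor of the ATP synthase, was up-regulated from 179, 124, 140.2 and 152 CPM to 313, 302 and 289 CPM, a log2 difference of 1.02 (adjusted p = 1.49e-05, edgeR). Among 20 genes of mitochondrial transcription and replication, 4 were up-regulated, including Mterf3 (0.62), and 2 were down-regulated, the DNA polymerase gene Polg (-0.42) and the coactivator Ppargc1b (-0.75), or 2 up-regulated and 3 down-regulated under library size alone.

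The cytosolic ribosomal protein genes showed a similar balance. Of 80 tested, 9 were up-regulated and 41 down-regulated, with a median of -0.30. Rpl10 was at 461, 408, 425 and 468 CPM in the once-daily libraries and 205, 183 and 186 CPM in the twice-daily libraries (log2 difference -1.20, adjusted p = 3.14e-07, edgeR), with no overlap between the groups. Rps21 and Rps13 differed by -0.93 and -0.88, and Rps6, whose protein is the phosphorylated S6 of the small subunit, rose by 0.86. Ribosomal protein genes have many processed copies in the genome, so reads can be shared between a gene and its copies and these values are uncertain. Over all genes, the median log2 fold change was 0.00 where no 50-base stretch of the transcript occurred at another locus (8820 genes, 9.17% down-regulated) and -0.38 where more than 50% of the stretches did (202 genes, 26.2% down-regulated). It also ran from 0.08 in the 3053 genes with the lowest GC content (12.1% up-regulated, 8.06% down-regulated) to -0.12 in the 3052 with the highest (3.90% and 14.9%), while it lay between -0.02 and 0.01 in each of 5 equal groups by exonic length.

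Genes of the circadian clock differed in a mixed pattern. Of 17 core clock genes, 1 was up-regulated and 5 were down-regulated (median -0.16). Per1 was at 56.8, 48.3, 38.5 and 48.0 CPM in the once-daily libraries and 15.1, 15.4 and 20.2 CPM in the twice-daily libraries, a log2 difference of -1.51 ± 0.14 (SE, adjusted p = 6.45e-06, edgeR). No twice-daily library reached the lowest once-daily library for Per1. Cry1, another repressor gene, was at 10.2, 7.39, 5.74 and 6.60 CPM and 5.22, 3.46 and 1.86 CPM (log2 difference -1.08, adjusted p = 0.0222, edgeR), and its groups did not overlap either. The nuclear receptor gene Rora, an activator of Arntl, differed by -0.44 and the casein kinase gene Csnk1d, whose product phosphorylates PER, by -0.41. Nr1d1, the repressor of Arntl, was the up-regulated member, with 28.9, 43.3, 28.1 and 56.5 CPM in the once-daily libraries and 70.1, 104 and 135 CPM in the twice-daily libraries (log2 difference 1.39 ± 0.34 (SE), adjusted p = 0.0435, edgeR). The call on Nr1d1 was lost without any one of 5 libraries (once-daily replicate 1, 2 or 3 and twice-daily replicate 2 or 3), with differences of 1.15 to 1.62 over the 7 omissions, and that on Cry1 without twice-daily replicate 2 or 3.

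The promoters of some of these genes were searched for the E-box. The 250 bases before the start of transcription are shown, from RefSeq on build GRCm38.p6, for the 2 repressor genes that were down-regulated and the one that was up-regulated, in the direction of transcription, with the E-box CACGTG (the same on both strands) in capitals.
Per1: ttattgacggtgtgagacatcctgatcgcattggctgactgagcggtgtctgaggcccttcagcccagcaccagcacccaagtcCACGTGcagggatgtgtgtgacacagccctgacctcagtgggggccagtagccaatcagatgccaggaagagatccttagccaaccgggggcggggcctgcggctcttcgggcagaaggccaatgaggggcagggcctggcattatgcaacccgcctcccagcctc
Cry1: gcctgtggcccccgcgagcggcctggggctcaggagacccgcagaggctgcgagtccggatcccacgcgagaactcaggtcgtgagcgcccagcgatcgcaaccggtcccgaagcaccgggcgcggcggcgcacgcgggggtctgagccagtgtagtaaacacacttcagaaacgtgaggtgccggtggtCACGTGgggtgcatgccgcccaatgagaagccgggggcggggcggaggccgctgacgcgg
Nr1d1: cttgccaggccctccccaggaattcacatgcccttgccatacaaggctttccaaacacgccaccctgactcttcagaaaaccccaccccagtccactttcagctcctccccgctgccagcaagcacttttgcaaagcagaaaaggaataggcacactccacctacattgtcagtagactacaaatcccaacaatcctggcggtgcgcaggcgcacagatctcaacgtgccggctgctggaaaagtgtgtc
The Per1 window lies on the plus strand at chr11:69098699-69098948, with the E-box starting 166 bases before the start. It is the first of 2 windows for Per1, and the second holds no CACGTG. The Cry1 window lies on the minus strand at chr10:85185055-85185304, with the E-box starting 60 bases before the start, and the Nr1d1 window on the minus strand at chr11:98775378-98775627 holds no CACGTG. Of the 32851 RefSeq windows of this length, 1978 (6.02%) hold CACGTG, as do 1163 (8.03%) of the 14484 windows of tested genes. Of the 18 windows matched for 12 of the core clock genes, 3 (16.7%) do, with those shown for Per1 and Cry1 included. Of the 9 windows matched for 6 called members of the clock lists, 2 do, those of Per1 and Cry1. The windows of the down-regulated genes Rora, Usp2 and Tsc22d3 hold none. Sequence farther from the start was not searched, and a link between the E-box and direction was not tested.

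The clock genes Arntl and Dbp were set apart by library within each group, a pattern singled out after the values were seen. Arntl was at 29.8, 6.15, 6.61 and 5.31 CPM in the once-daily libraries and 30.2, 3.59 and 4.35 CPM in the twice-daily libraries, so replicate 1 of each group stood more than 4 times above each of the others. Dbp, an output gene that runs opposite to Arntl, was at 6.78, 69.7, 56.5 and 80.8 CPM and 8.82, 119 and 110.0 CPM, with replicate 1 of each group lowest. Neither gene passed the test between the schedules (log2 differences 0.11 and 0.56, adjusted p = 0.959 and 0.774, edgeR). In the livers of the water mice, replicate 1 stood apart in the same way, with Arntl at 20.8 CPM without TMM factors against 0.922 to 3.93 in the other once-daily livers, and at 23.4 against 3.10 and 7.06 in the twice-daily livers. Nothing in the labels says that equal numbers mark the same mouse or the same time of day. Without replicate 1 of both groups, an alternative added after the data were seen, 1127 genes were up-regulated and 1483 down-regulated, and Per1 and Cry1 kept their calls while that of Nr1d1 was lost, Dbp became up-regulated and Lcn2 down-regulated.

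**Figure D3:**
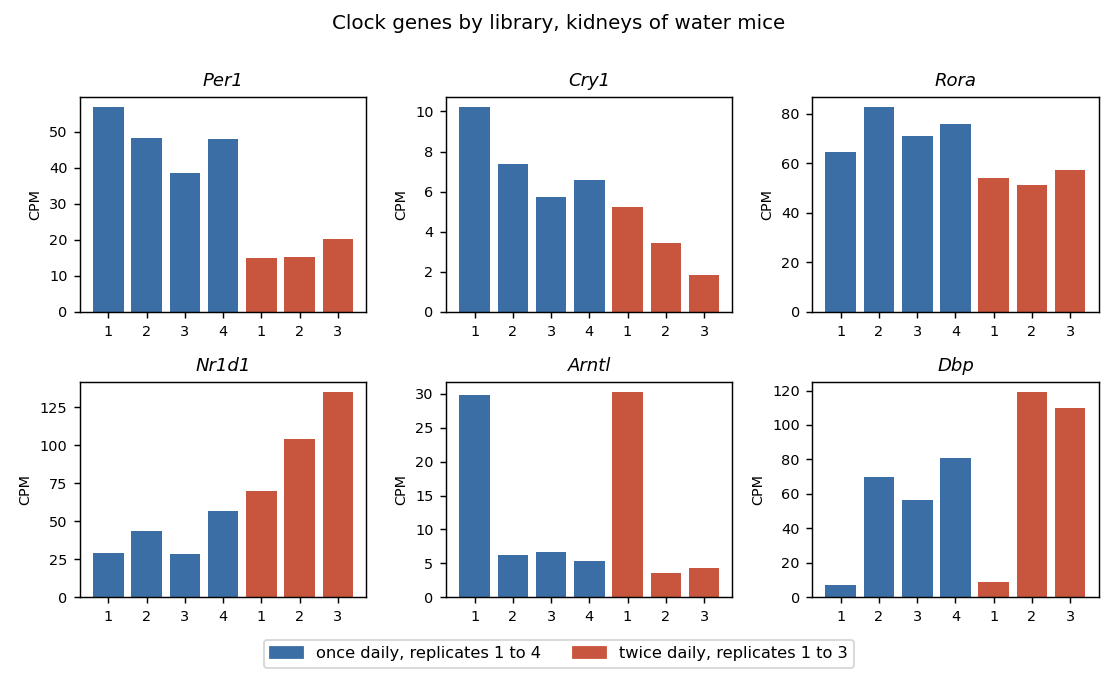
CPM (vertical axes, starting at 0) of 6 clock genes in each kidney library of water mice, once-daily replicates 1 to 4 in blue and twice-daily replicates 1 to 3 in red. Per1, Cry1 and Rora were lower and Nr1d1 higher in every twice-daily library, while Arntl and Dbp differed between replicate 1 and the other libraries of both groups.

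Glucocorticoid response genes were down-regulated where they were called. Of 23 tested, 9 were down-regulated and none was up-regulated (median -0.36), and 2 of the 9, Per1 and Tsc22d3, are also members of the clock lists. Tsc22d3, which encodes the glucocorticoid-induced leucine zipper GILZ, was at 105, 64.5, 72.1 and 107 CPM in the once-daily libraries and 26.7, 29.3 and 27.9 CPM in the twice-daily libraries (log2 difference -1.64, adjusted p = 1.78e-04, edgeR). Sgk1, the kinase through which aldosterone and glucocorticoids raise sodium channel activity, was at 154, 96.2, 94.6 and 125 CPM and 50.2, 55.3 and 53.9 CPM (log2 difference -1.14, adjusted p = 5.35e-04, edgeR). Pck1, which encodes the gluconeogenic enzyme phosphoenolpyruvate carboxykinase, was at 5044, 3449, 3167 and 3819 CPM and 2242, 1945 and 1610 CPM (log2 difference -1.0, adjusted p = 0.00137, edgeR). The groups did not overlap for any of these 3 genes. Ddit4 differed by -1.28, Nfkbia by -0.67, Klf9 by -0.58 and Errfi1 by -0.36, and all but Fkbp5 of the genes named here were called. Fkbp5, a sensitive target of the receptor, was at 119.8, 105, 71.5 and 106 CPM and 110.3, 70.4 and 90.7 CPM with overlapping groups (log2 difference -0.15, adjusted p = 0.646, edgeR). The ninth member, the liver enzyme gene Tat, held 118 reads over the once-daily libraries and 0 over the twice-daily libraries, at least 33.2-fold lower against a floor of 3 reads over the group. Its once-daily level was 0.108% of that in the livers of the same schedule. The part of RNA from other tissues in the Tat difference was not tested. With Tat at that bound the list median was unchanged at -0.36. In the fit of all 14 kidney libraries together, Per1, Klf9, Nfkbia, Errfi1 and Ddit4 lost their calls.

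Of 19 heat shock and folding genes, 6 were down-regulated and none was up-regulated (median -0.47), and the down-regulated numbered 4 with DESeq2 size factors, upper quartile scaling or the mitochondrial genes removed and 10 under library size alone. Hspa1b, an inducible HSP70, was at 69.3, 44.9, 40.9 and 59.0 CPM in the once-daily libraries and 22, 21.3 and 20.7 CPM in the twice-daily libraries (log2 difference -1.33, adjusted p = 1.55e-04, edgeR). The co-chaperone gene Dnajb1 differed by -1.02, Hspb1 by -0.85, Hspa4l by -0.61 and Hspa1a, a near copy of Hspa1b whose reads are hard to assign, by -1.12. The call on Hspa1a was lost without once-daily replicate 4 or any one of the twice-daily libraries, with differences of -1.27 to -0.80 over the 7 omissions. Of 20 immediate early genes, 2 were up-regulated and 1 down-regulated (median 0.09), beside 18.3% called over all genes. Under library size alone the counts were 0 and 3. Junb, an AP-1 subunit, differed by 0.57, Zfp36, which encodes an mRNA-destabilizing protein, by 0.54 and Ier3 by -0.94, and 5 of 7 single omissions ended the call on Junb (differences of 0.45 to 0.74).

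Genes of water handling were split. Of 17 tested, 4 were up-regulated and 4 down-regulated (median -0.22), or 2 and 8 under library size alone. Aqp2, the vasopressin-regulated water channel of the collecting duct, was at 344, 227, 239.6 and 254 CPM in the once-daily libraries and 183, 199 and 167 CPM in the twice-daily libraries (log2 difference -0.54, adjusted p = 0.0109, edgeR). Aqp4, the basolateral channel of the same cells, was at 47.7, 50.8, 64.9 and 51.2 CPM and 88.7, 103 and 85.4 CPM (log2 difference 0.78, adjusted p = 1.76e-04, edgeR). The groups did not overlap for either gene, and the directions were opposite. The proximal and thin-limb channel gene Aqp1 differed by -0.39, the phosphodiesterase gene Pde4d, whose product degrades cyclic AMP, by -0.86, and the urea transporter gene Slc14a2 by 0.47. Prkar2b, a cyclic AMP-dependent kinase subunit that fat cells also express, differed by 1.62, and the part of fat tissue in this was not tested. The call on Prkar2b was lost in 4 of 7 single omissions (1.41 to 1.99) and without replicate 1 of both groups. The vasopressin V2 receptor gene Avpr2 held 2 to 9 counts per library and was not tested. Of 16 genes of osmolyte handling, 2 were up-regulated and 4 down-regulated (0 and 7 under library size alone). Slc5a3, the sodium-dependent myo-inositol transporter that cells induce under high tonicity, was at 161, 191, 174 and 199.6 CPM and 75.4, 88.6 and 106 CPM (log2 difference -1.01, adjusted p = 3.16e-05, edgeR), the inositol synthase gene Isyna1 differed by -0.46, and the other 2 down-regulated members were the heat shock genes Hspa1b and Hspa4l.

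Salt and mineral transport genes moved in both directions. Of 27 genes of distal sodium transport and its control, 5 were up-regulated and 5 down-regulated (median 0.03), or 1 and 8 under library size alone, and 4 of the 5 down-regulated, Per1, Tsc22d3, Sgk1 and Usp2, were regulators that also belong to the clock or glucocorticoid lists. The deubiquitinase gene Usp2 differed by -0.98. The sodium-chloride cotransporter gene Slc12a3 was at 912, 868, 948 and 858 CPM in the once-daily libraries and 882, 719 and 908 CPM in the twice-daily libraries, with overlapping groups (log2 difference -0.10 ± 0.09 (SE), adjusted p = 0.502, edgeR), and was called lower under library size alone. Kcnj1, the potassium channel ROMK, differed by -0.46, the remaining down-regulated member, and Fxyd2, the gamma subunit of the sodium pump, by 0.55. Ren1, which encodes renin, was at 48.0, 40.8, 30.8 and 31.7 CPM and 48.6, 69.2 and 39.3 CPM and did not pass the test (log2 difference 0.47, adjusted p = 0.182, edgeR). With no filter on low counts Ren1 passed. Of 12 genes of the renin-angiotensin system, 1 was up-regulated and 3 were down-regulated, among them angiotensinogen Agt (-0.38) and the prorenin receptor Atp6ap2 (-0.51). Under library size alone these counts were 0 and 4. Of 25 genes of phosphate, calcium and magnesium transport, 2 were up-regulated, the calcium channel gene Trpv5 (0.72) and the calbindin gene S100g (0.52), and 4 were down-regulated, among them Egf (-0.59), the parathyroid hormone receptor gene Pth1r (-0.42) and the phosphate transporter gene Slc34a1 (-0.30). The call on Slc34a1 was lost with GC and length offsets and in 4 of 7 single omissions (-0.33 to -0.25). Of 18 genes of acid handling, 3 were down-regulated and none was up-regulated: Pck1, the pendrin gene Slc26a4 (-0.52) and the ammonia transporter gene Rhbg (-0.67), whose call was lost in 4 of 7 single omissions (-0.92 to -0.50).

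Fatty acid oxidation had 44 tested genes, with 3 up-regulated and 14 down-regulated (median -0.09). Acot2, a mitochondrial acyl-CoA thioesterase, was at 34.8, 43.1, 43.2 and 41.5 CPM in the once-daily libraries and 18.9, 13.7 and 18.9 CPM in the twice-daily libraries (log2 difference -1.24, adjusted p = 1.51e-05, edgeR). The peroxisomal thiolase gene Acaa1b differed by -0.91 and the cytosolic thioesterase gene Acot1 by -1.0, a pair of genes with close paralogs whose shared reads make the values uncertain. Abcd2, a peroxisomal transporter that fat also expresses, differed by 2.48 from levels of at most 1.18 CPM. Of 20 PPAR-alpha and fasting targets, 2 were up-regulated and 3 down-regulated (3 and 3 with DESeq2 size factors, upper quartile scaling or the mitochondrial genes removed, and 2 and 1 with GC and length offsets), and the 2 that rose were Ucp3 (2.20) and Cidec (2.82), the latter also an adipocyte marker here. The call on Cidec was lost in 5 of 7 single omissions (once-daily replicate 1 or 2 and each twice-daily library), with differences of 2.51 to 3.56. Of 23 genes of gluconeogenesis and insulin signalling, 3 were up-regulated and 5 down-regulated (2 and 11 under library size alone, 1 and 5 with GC and length offsets). The glucose transporter gene Slc5a2 (SGLT2), which reclaims most filtered glucose, was at 403, 391, 442 and 337 CPM and 254, 208 and 258 CPM (log2 difference -0.71, adjusted p = 2.49e-04, edgeR). The insulin-regulated factor gene Foxo1 differed by -0.43, hexokinase 2 gene Hk2 by 1.38 and Igfbp1 by 1.46, the last 2 with calls lost in 4 of 7 single omissions each (differences of 1.10 to 1.82 and 0.97 to 1.80). The call on Igfbp1 was also lost with GC and length offsets. Of 25 cholesterol genes, 2 were up-regulated and 1 down-regulated (1 and 6 under library size alone), beside 18.3% called over all genes. Nsdhl, a sterol dehydrogenase, was at 59.3, 55.7, 52.5 and 58.3 CPM and 113, 98.6 and 99.7 CPM (log2 difference 0.88, adjusted p = 9.93e-06, edgeR). Pmvk differed by 0.57 and Acat2 by -0.32.

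Antioxidant and NAD genes were called in part of their members, beside 18.3% of all genes (7.55% upward and 10.7% downward). Of 27 NRF2 targets and glutathione genes, 9 were up-regulated and 3 down-regulated (median 0.11), a balance that turned to 4 and 8 under library size alone. Gsta2, a glutathione transferase, was at 168, 165, 173 and 202 CPM in the once-daily libraries and 334, 265 and 292 CPM in the twice-daily libraries (log2 difference 0.75, adjusted p = 1.03e-04, edgeR). Gsta3 differed by 0.59, and the pentose phosphate enzyme genes G6pdx and Tkt by 0.59 and 0.48. Txnrd1, thioredoxin reductase, differed by -0.43 and Osgin1 by -0.75. Of 37 genes of NAD metabolism, 3 were up-regulated and 6 down-regulated (median -0.03), or 0 and 10 under library size alone. Slc25a51, the mitochondrial NAD transporter, was at 245, 240.1, 249.9 and 229 CPM and 144, 163 and 170.4 CPM (log2 difference -0.60, adjusted p = 1.97e-04, edgeR), and the mitochondrial deacylase gene Sirt3 differed by -0.49. Nampt, the rate-limiting enzyme of the salvage pathway from nicotinamide, was at 124, 146, 156 and 143 CPM and 156, 213 and 189 CPM (log2 difference 0.39, adjusted p = 0.0192, edgeR), a call lost with GC and length offsets, under library size alone, or without twice-daily replicate 2 or 3. Afmid, of the pathway from tryptophan, differed by -0.51, and Tdo2, which belongs mainly to the liver, by -2.28.

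Genes of injury, immunity and the matrix went in both directions where they were called, beside 18.3% called over all genes. Of 23 tested genes of tubule injury and repair, 2 were up-regulated and 4 down-regulated (median -0.03). The injury marker Havcr1 (KIM-1) was at 1.01, 1.12, 1.54 and 1.10 CPM in the once-daily libraries and 5.22, 1.54 and 0.768 CPM in the twice-daily libraries, where twice-daily replicate 1 stood above the rest (log2 difference 1.08 ± 0.52 (SE), adjusted p = 0.168, edgeR, and -0.05 without that library). Lcn2 (NGAL) was at 2.85, 3.37, 4.63 and 4.15 CPM and 4.32, 2.18 and 1.98 CPM with overlapping groups (log2 difference -0.40, adjusted p = 0.397, edgeR). Neither marker passed the test with all 7 libraries and the filter on low counts. Havcr1 ranged from -0.05 to 1.51 over single omissions and passed without twice-daily replicate 3 or with no filter on low counts, and Lcn2 ranged from -0.85 to -0.19 and passed without replicate 1 of both groups. The called members were Sprr1a (0.58) and Mdk (0.36) upward and Sox9 (-1.65), Tnfrsf12a (-0.58), Krt8 (-0.33) and the liver-type gene Fgb downward. Sprr1a and Mdk lost their calls under library size alone, in the fit of all 14 kidney libraries and without replicate 1 of both groups. The call on Mdk was also lost with DESeq2, without the robust fit, after thinning and with shared-copy genes left out. Single omissions ended the call on Mdk in 5 of 7 cases (differences of 0.26 to 0.43) and that on Sox9 in 4 (-1.82 to -1.27). Of 31 interferon response genes, 2 were up-regulated, among them Stat2 (0.49), and 2 down-regulated, among them Bst2 (-0.62, a call lost in 4 of 7 single omissions, -0.70 to -0.53), or 0 and 3 under library size alone. In antigen presentation, 1 of 20 genes was up-regulated and 3 were down-regulated, or 1 and 9 under library size alone. B2m, the light chain of MHC class I, was at 245, 176, 166 and 209 CPM and 381, 379 and 382 CPM (log2 difference 0.94, adjusted p = 6.47e-05, edgeR), while H2-T23 differed by -0.48, Tap2 by -0.51 and Ciita by -1.0. Of 26 proliferation genes, 1 was down-regulated, Rrm2 (-1.17). Of 28 matrix genes, 2 were up-regulated, periostin Postn (2.14) and decorin Dcn (0.76), and 5 were down-regulated, among them Col18a1 (-0.45) and Col1a1 (-0.54), while GC and length offsets gave 3 and 2 and ended the call on Col1a1.

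Cell type markers of the kidney were tested as lists, with 0 to 4 of up to 10 called per list beside 18.3% of all genes. Podocyte markers had 1 of 10 members down-regulated, and markers of the first and second proximal tubule segments had 1 up-regulated and 2 down-regulated of 10, with summed levels of 10433 to 12421 CPM in the once-daily and 10105 to 11083 CPM in the twice-daily libraries. Under library size alone the counts up and down were 0 and 3 for podocytes and 0 and 3 for these segments. Third-segment markers had 1 of 10 in each direction, Aadat (0.60) and the transporter gene Slc22a13 (-0.72), or 1 and 2 under library size alone. Thin limb markers had 2 up-regulated and 1 down-regulated of 10 (0 and 2 under library size alone), with Slc14a2 and Aqp1 among them. Thick ascending limb markers had 1 up-regulated and 2 down-regulated of 10, and their most abundant member, the uromodulin gene Umod, was at 2260, 2275, 2100 and 1771 CPM in the once-daily libraries and 1367, 1874 and 1854 CPM in the twice-daily libraries (log2 difference -0.31, adjusted p = 0.0886, edgeR), with overlapping groups, and was called lower under library size alone, with no filter on low counts or without once-daily replicate 4. The summed level of the 10 was 4343 to 5127 CPM in the once-daily and 3353 to 4220 CPM in the twice-daily libraries. Distal convoluted tubule markers had 1 of 10 in each direction, Wnk1 (0.30, a call lost in 4 of 7 single omissions, 0.28 to 0.36) and Sgms2 (-1.04), or 0 and 3 under library size alone. Principal cell markers had 2 up-regulated and 1 down-regulated of 9, Aqp4 and Scnn1b against Aqp2, or 1 and 4 under library size alone. Intercalated cell markers had 3 up-regulated, among them the proton pump gene Atp6v1g3 (0.61), and 1 down-regulated of 10. Endothelial markers had 3 up-regulated of 10 and none down-regulated, Cdh5 (0.50), Emcn (0.58) and Pecam1 (0.51), which under library size alone became 0 and 1, and the call on Pecam1 was lost in 6 of 7 single omissions (differences of 0.38 to 0.65). Vascular smooth muscle had 1 of 9 markers up-regulated (0 and 1 under library size alone), and fibroblasts and pericytes had 1 up-regulated, Dcn, and 2 down-regulated of 10, Col1a1 and Col1a2 (1 and 0 with GC and length offsets). None of the 10 macrophage, 8 red blood cell and 8 urothelial markers tested passed the threshold (the urothelial genes Gsdmc and Krt13 had no read in any library), although library size alone gave 1 macrophage and 1 urothelial marker down-regulated and GC and length offsets 1 macrophage marker up-regulated. Of the lymphocyte, neutrophil and adrenal cortex markers only 2, 1 and 2 had enough counts to be tested. With GC and length offsets the counts up and down became 1 and 1 for podocytes and for the first and second proximal segments, 2 and 1 for the third segment, 1 and 2 for the distal convoluted tubule and 0 and 0 for vascular smooth muscle.

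Markers of fat cells were higher in twice-daily mice. Of 10 adipocyte markers, 9 were up-regulated (median 2.80), and the groups did not overlap for any of the 10. Their summed level was 115, 109, 86.4 and 212 CPM in the once-daily libraries and 494, 627 and 750 CPM in the twice-daily libraries. Retn, which encodes the adipokine resistin, was at 0.507, 0.827, 0.123 and 1.40 CPM and 13.3, 12.2 and 18.1 CPM (log2 difference 4.32 ± 0.39 (SE), adjusted p = 3.06e-05, edgeR). Adipoq, the adiponectin gene, was at 1.14, 3.78, 2.35 and 8.67 CPM and 26.8, 38.3 and 39.9 CPM (log2 difference 3.13, adjusted p = 0.0198, edgeR). Fabp4, the most abundant of the list and also expressed in endothelium, was at 59.9, 52.4, 41.4 and 92.2 CPM and 195, 268 and 319 CPM (log2 difference 2.09, adjusted p = 0.00870, edgeR). The once-daily library of replicate 4 was the highest of its group for each of these genes and still lay below every twice-daily library. The lipid-droplet gene Plin1 differed by 2.77, the lipase gene Lipe by 1.01 and the leptin gene Lep by 4.52, and the thermogenic gene Ucp1 was the member that did not pass. Single omissions ended the call on Adipoq in 4 of 7 cases (once-daily replicate 2 or 3 and twice-daily replicate 2 or 3, with differences of 2.83 to 3.83) and none of those on Retn, Fabp4, Plin1 and Lep. The call on Plin1 was lost in the fit of all 14 kidney libraries, and that on Fabp4 without replicate 1 of both groups. No defining marker was at 0 in all libraries. Agpat2, a lipid synthesis enzyme of fat and other tissues and one of the genes with the smallest p, rose by 1.21. The part of fat tissue in these and other changes was not tested.

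Of 10 hepatocyte markers, 6 were down-regulated and none was up-regulated (median -2.65), while the other 4 were not called and differed by 0.37 (Apob), 0.08 (Ttr), 0.22 (Serpina1a) and -0.50 (Apoc3). These 4 were at 0.563% to 3.31% of the liver level in the once-daily kidneys and 0.432% to 4.43% in the twice-daily kidneys. The summed level of the 10 was 360 to 440 CPM in the once-daily libraries and 317 to 354 CPM in the twice-daily libraries, and its most abundant member was Apob. Alb, the albumin gene, was at 71.4, 76.9, 87.0 and 100.4 CPM in the once-daily libraries and 10.4, 10.6 and 12.7 CPM in the twice-daily libraries (log2 difference -2.90 ± 0.13 (SE), adjusted p = 2.22e-09, edgeR). Mup3, a major urinary protein gene of a family of near copies, was at 9.76, 10.5, 9.69 and 14.7 CPM and 0.225, 0.128 and 0.0640 CPM (log2 difference -6.22, adjusted p = 1.81e-08, edgeR), and Ahsg, the fetuin gene, at 7.16, 7.03, 11.1 and 10.1 CPM and 0.169, 0.128 and 0.0640 CPM (log2 difference -6.09). Apoa1 differed by -3.10, Fgb by -2.40 and the drug-metabolizing enzyme gene Cyp3a11 by -3.84. Outside the list, the liver serpin genes Serpina1e and Serpina3k, 2 of the genes with the smallest p, differed by -5.59 and -6.18. For the 6 down-regulated markers, the once-daily kidney level was between 0.0889% and 0.130% of the level in the livers of once-daily water mice, and the twice-daily kidney level was between 0.00101% and 0.0206% of that in the livers of twice-daily water mice. Of 20 markers of the proximal tubule and thick ascending limb, 16 took a lower share of their kidney level in the livers of twice-daily than of once-daily water mice, 3 a higher share (Slc7a7, Gatm and Kng2) and 1 had no read in either, and Umod was at 0.133% of its kidney level in the once-daily livers against 0.0126% in the twice-daily livers. Of 119 tested genes whose once-daily liver level was 100 times the kidney level or more, 56 were down-regulated and 3 up-regulated. With all such genes left out, an alternative added after the data were seen, 1134 genes were up-regulated and 1579 down-regulated. The neuronal gene Snap25, singled out after its values were seen, had 277 reads over the 4 once-daily kidney libraries and 1 read over the 3 twice-daily libraries, a ratio of 233 after scaling (95% exact interval, for counting error only, 41.6 to 9255), and it had 72 to 100 reads in each once-daily liver of water mice and 0 in each twice-daily liver. The part of RNA from other tissues in these differences was not tested.

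**Figure D4:**
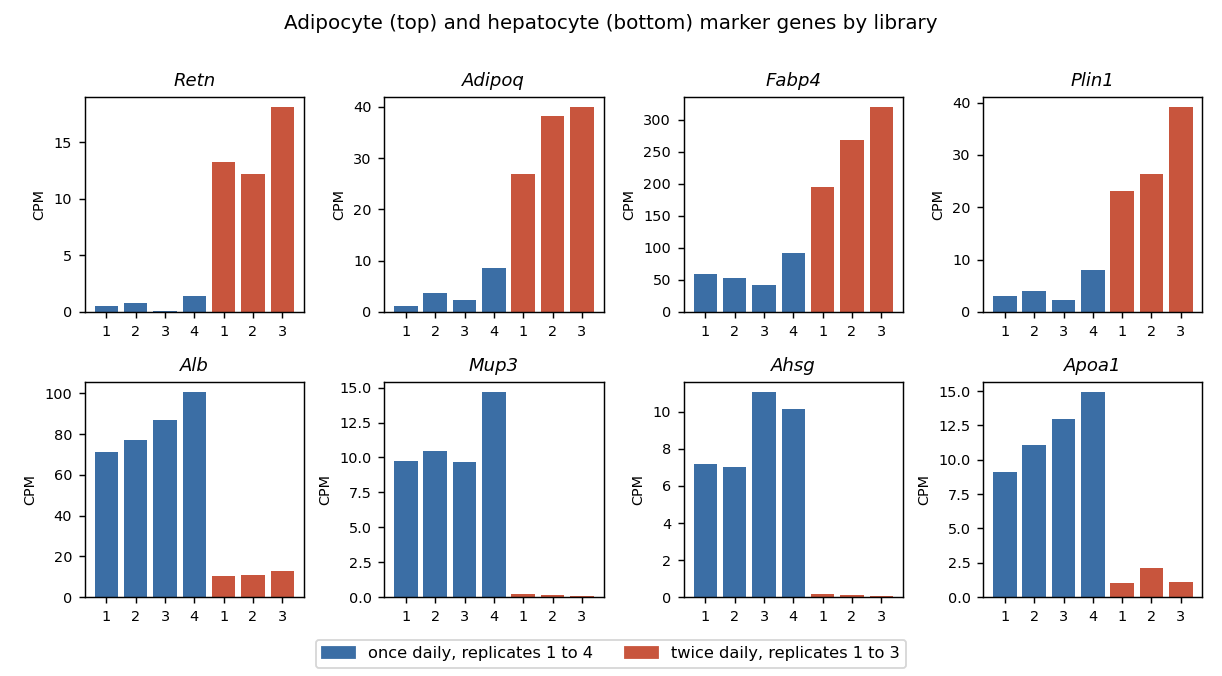
CPM (vertical axes, starting at 0) of 4 adipocyte markers (top row) and 4 hepatocyte markers (bottom row) in each kidney library of water mice, once-daily replicates 1 to 4 in blue and twice-daily replicates 1 to 3 in red. The adipocyte markers were higher and the hepatocyte markers lower in all 3 twice-daily libraries.

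Several of the remaining genes with the smallest p were down-regulated. Kcnq1ot1, a nuclear antisense RNA, was at 33.4, 33.6, 40.6 and 37.6 CPM in the once-daily libraries and 10.2, 7.43 and 8.64 CPM in the twice-daily libraries (log2 difference -2.05, adjusted p = 8.42e-08, edgeR), and it overlaps Kcnq1 on the other strand, from which its reads cannot be told apart. Malat1, an abundant nuclear RNA, was at 2264, 2412, 2967 and 2812 CPM and 1279, 1245 and 1272 CPM (log2 difference -1.05, adjusted p = 8.02e-06, edgeR). Of 13 nuclear retained RNAs tested, 1 was up-regulated and 2, Kcnq1ot1 and Malat1, were down-regulated (0 and 3 under library size alone). The transcription factor gene Zbtb20 fell from 634, 751, 638 and 643 CPM to 259, 294 and 331 CPM (log2 difference -1.18), and the groups did not overlap for any of these genes. Gabarapl2, of the autophagy machinery, differed by -1.34, the glycolytic enzyme gene Pgam1 by -1.26, Sec61g of the protein translocation channel by -2.18 and the calcium-binding protein gene S100a11 by 1.18. These 4 values are uncertain, since 12.2%, 36.2%, 14.8% and 41.1% of the 50-base stretches of their transcripts, in that order, also occur at another locus. Of 320 zinc finger protein genes, 23 were up-regulated and 9 down-regulated (median 0.06), a balance that turned to 9 and 28 under library size alone. Clone names without a gene symbol made up 249 of the calls, 93 up and 156 down.

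The same contrast was tested in the kidneys of NMN mice, 3 from the twice-daily against 4 from the once-daily group, which share no library with the water mice but share the schedule and its library differences. There, mitochondrial genes took 20.1% to 20.7% of the reads in the twice-daily libraries and 8.92% to 10.5% in the once-daily libraries. Of 14974 genes tested, 2174 (14.5%) passed the threshold, 917 upward (6.12%) and 1257 downward (8.39%). Single omissions gave fewer calls in most cases, down to 962 without twice-daily replicate 3, with 1235 without twice-daily replicate 2, 1415 without twice-daily replicate 1 and 1448 without once-daily replicate 2, and the shares of shared calls rest on the full set. Of 2722 genes called in water mice and tested in NMN mice, 2646 (97.2%) had the same sign, against 76.4% of the 14762 genes tested in both. The genes called in the same direction in both numbered 1375, which was 49.3% of the calls in water mice and 63.2% of those in NMN mice, and 1 gene was called in opposite directions. mt-Nd2 differed by 1.75 in NMN mice, Lars2 by -2.30, Mup3 by -5.56, Retn by 5.19 and Slc5a3 by -1.04, and each passed the test there. Of the adipocyte markers, 3 of 9 tested were up-regulated in NMN mice, against 9 of 10 in water mice, and the difference was not tested. Their median log2 fold change was 3.30 in NMN mice and 2.80 in water mice. Other genes named for the water mice did not pass in NMN mice, among them Per1 (-1.34, adjusted p = 0.298), Tsc22d3 (-1.73, adjusted p = 0.0966) and Aqp4 (-0.05, adjusted p = 0.807, edgeR for all 3). Whether these genes differed between water and NMN mice was not tested here.

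**Figure D5:**
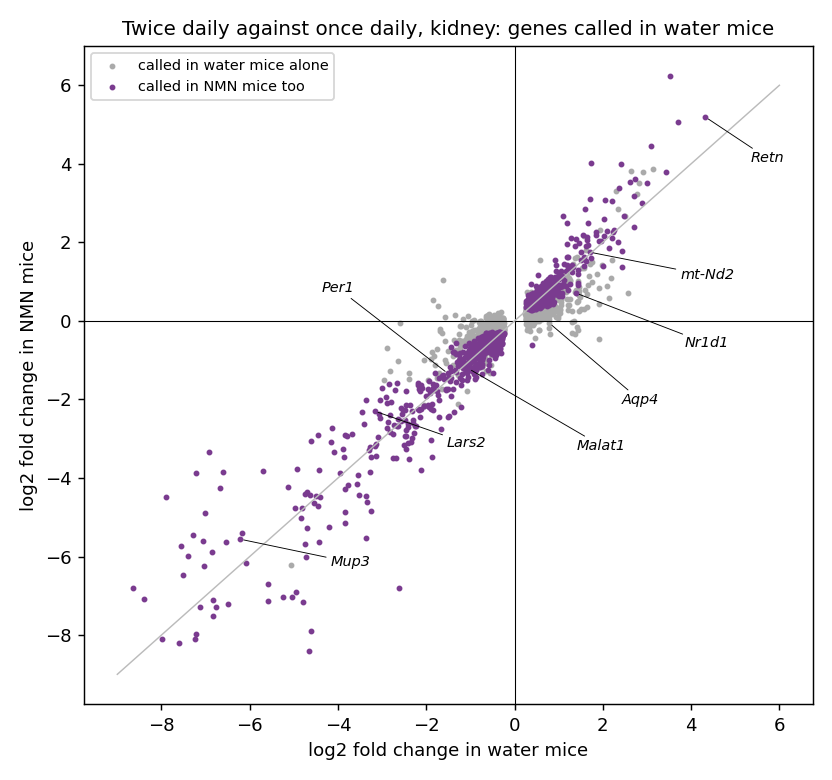
Log2 fold change, twice-daily against once-daily, in the kidneys of NMN mice (vertical axis) against that in water mice (horizontal axis) for the genes called in water mice and tested in NMN mice. Purple points were called in NMN mice too and grey points in water mice alone, the grey line marks equality, and 97.2% of the points lie in the 2 quadrants of equal sign.

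Livers of the water mice served as a test of what was particular to the kidney, as the kidney difference minus the liver difference in one fit of 14 libraries. Kidneys and livers may come from the same mice, which the labels do not show, and the fit treats them as independent samples. Of 15912 genes tested, 296 (1.86%) differed, 200 of them upward in the kidney relative to the liver (1.26%) and 96 downward (0.603%). The count was 512 with DESeq2 (333 upward and 179 downward) and 30 where every library had at least 10 counts (17 and 13). Of 2782 genes called in the kidney and tested in that fit, 118 (4.24%) differed from the liver, 2318 (83.3%) lay on the same side in the liver, against 65.0% of the 15239 genes tested in both, and 757 were called there too, where 11.4% of all genes were called, 4.51% upward and 6.92% downward. The mitochondrial protein genes were up-regulated in the liver as well, mt-Nd2 by 1.10 (adjusted p = 2.34e-05, edgeR) and mt-Co1 by 0.53, and Lars2 was lower there by -2.32. Per1 differed by -1.96 in the liver (adjusted p = 0.00121, edgeR), Pck1 by -1.96 and Nsdhl by 0.93, all called. Sgk1, Slc5a3 and Aqp4 were not called in the liver (-0.21, -0.47 and 0.24), and their difference between the organs did not pass either (adjusted p = 0.221, 0.688 and 0.591, edgeR). At this number of libraries the interaction test recovered 23% of simulated differences of 1 on the log2 scale, so a difference between the organs that did not pass is not shown to be absent.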

How the data were processed

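The authors prepared polyA-selected RNA-seq libraries, aligned the reads with STAR and deposited HTSeq counts per gene, counted without strand (54446 genes in each file), without normalization; lines that name no gene were removed before scaling and their shares were kept as library measures. The labels number the samples of a group without saying how they were drawn, so p-values measure the spread between these samples, and the build name given with the files matched no assembly name, so gene symbols came from the annotation by identifier. Counts were tested with edgeR 4.0.16 (R 4.3.3; TMM scaling, filterByExpr, robust quasi-likelihood fit, Benjamini-Hochberg adjustment), with the kidney water libraries alone, the kidney NMN libraries alone, and the 14 water libraries of kidney and liver for the difference between organs. DESeq2 1.42.0, other scalings, filters, GC and length offsets, thinning and leaving out libraries were alternatives. On counts simulated for 14968 genes at the depth of the water kidneys, 86% of changes of 1 and 35% of changes of 0.5 on the log2 scale were recovered, and 9 of 130 calls were false. The genes named were the 12 per direction with the smallest adjusted p (at least 5 CPM, no overlap), up to 4 per list, the leading cell type markers and a fixed set, and Adipoq, Plin1, Ucp1, Apoa1, Apoc3, Cyp3a11, Ttr, Serpina1a, Cry1, Klf9, Nfkbia, Errfi1, Ddit4, Hspa1a, Uqcrb, Osgin1, Txnrd1, Hk2, Igfbp1, Sox9, Mdk, Prkar2b, Snap25, Bc1 and the members named in the closing section were chosen after their values were seen. The members, lists and tests were chosen with earlier results of these data known. A few genes that the rule names are not reported here. No column of per-sample values was left unused. The depths given cover counting precision only.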

Additional observations from a re-analysis of the deposited data

Results flagged for a closer look

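Among 147 named genes, a once-daily library stood far from the other 3 of its group for 10, where chance alone gives about 1 in 20 groups. Replicate 1 stood above the others for Arntl (29.8 CPM), Hspa4l (27.1 CPM), Txnrd1 (214 CPM) and Tap2 (23.9 CPM). Replicate 2 stood below the others for mt-Nd2 (7799 CPM), Afmid (37.6 CPM), Rps21 (106 CPM) and Bc1 (5.2 CPM), and above them for Zbtb20 (751 CPM). Replicate 4 stood above the others for Mup3 (14.7 CPM).

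The difference between schedules in the kidney was set against that in the liver, in edgeR's quasi-likelihood fit of the 14 water libraries, and passed an adjusted p of 0.05 for 21 of the named genes. Liver-type genes were lower in the kidney relative to the liver, with a kidney minus liver log2 difference of -6.89 for Tat (a fitted value and no bound, since Tat held 0 reads in the twice-daily kidneys), -2.56 for Tdo2, -2.63 for Fgb, -3.65 for Alb, -6.16 for Mup3, -6.31 for Ahsg, -3.19 for Apoa1, -5.04 for Serpina1e and -6.04 for Serpina3k. Kidney transport genes gave 3.35 for Umod, 3.47 for Fxyd2, 6.08 for Kcnj1 (likewise a fitted value, with 28 reads over the once-daily and 0 over the twice-daily livers), 2.78 for Slc12a3, 2.92 for S100g, 1.77 for Egf, 3.31 for Slc34a1 and 3.70 for Slc5a2 (29 reads and 1 read in those livers), and -1.07 for Aqp1. In the livers Umod was at 0.133% (once-daily) and 0.0126% (twice-daily) of its kidney level and Slc34a1 at 0.128% and 0.0128%. The remaining values were 3.91 for Cidec, 1.25 for Postn and 1.45 for Zbtb20.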

How the results depend on the processing

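The count of called genes in the water kidneys (2787) was 2848 with DESeq2, of which 2597 were shared and all had the same direction. GC and length offsets gave 2763 calls with 2335 shared, and library size alone gave 3949 with 2135 shared. All shared calls of these 2 settings also had the same direction. The count fell to 350 at an adjusted p under 0.01 with a fold over 2 or under 0.5 and was 4859 at an unadjusted p under 0.05. Leaving out single libraries gave 1632 to 2880 genes, with 1742 without twice-daily replicate 2 and 1632 without twice-daily replicate 3. In NMN kidneys single omissions gave 962 to 2502, and the organ difference gave 512 genes with DESeq2 and 30 with at least 10 counts in every library. The direction of Arntl turned under library size alone (-0.035), with the replicate block (-0.38), with the block and GC and length offsets (-0.37) and without replicate 1 of both groups (-0.59, chosen after seeing the data), and it ran from -1.59 to 1.10 over single omissions. Slc12a3 turned with GC and length offsets (0.0036), Fkbp5 ranged from -0.32 to 0.0017 and Havcr1 from -0.049 to 1.51 over single omissions, and Havcr1 gave -0.11 without replicate 1 of both groups. The difference in genes with a read, 9.75 in all libraries, ranged from -350.8 to 446.2 over single omissions. The cause of these shifts was not tested. Of 147 named genes, 32 lost their calls without twice-daily replicate 2 and 33 without twice-daily replicate 3, and 8 to 17 in each of the other omissions. Leaving out genes with shared copies, also chosen after seeing the data, gave 2323 genes.

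Equal replicate numbers correlated by 0.128, 0.101 and 0.0377, and not every library correlated best with its own number, so the numbers were not taken as a pairing. Whether samples of equal number share more than the number was not tested. With the replicate block 3239 genes were called in water kidneys (3074 with GC and length offsets) and 1786 in NMN kidneys. Among 147 named genes the block brought Dbp, Umod, Ren1 and Apob past the threshold and ended the calls on Hk2 and Sox9.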

Other observations

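Some gene groups were not described above. Of 20 proximal tubule genes that are lost on injury, 4 were up-regulated and 3 down-regulated (2 and 7 under library size alone), with Cyp2e1, a cytochrome P450, at 0.57 on the log2 scale. Of 21 genes of ER stress and the integrated stress response, 2 were down-regulated and none up-regulated, the serine synthesis gene Phgdh (-0.90) and Sesn2 (-0.39). Of 16 male hormone responsive kidney genes, 2 were up-regulated and 1 down-regulated, the transporter gene Slc22a28 (-0.74), or 1 and 5 under library size alone. Of 10 tested RNAs without a poly(A) tail, 2 were down-regulated, Rn7sk, a small nuclear RNA that restrains transcription elongation (-1.85), and the histone gene Hist1h1c (-0.55). The only pancreas marker tested, Cela1, differed by -0.61.

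Bc1, a brain RNA, was at 8.30, 5.2, 7.84 and 7.88 CPM in the once-daily kidneys and 1.40, 0.576 and 0.960 CPM in the twice-daily kidneys (log2 difference -2.87, adjusted p = 1.58e-05, edgeR), with no overlap, and held 76 to 99 reads in each once-daily liver of water mice and 5 to 7 in each twice-daily liver.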
